A study of Rattus norvegicus with 6 samples.

Results

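Serotonin, dopamine, noradrenaline, adrenaline and acetylcholine act on hippocampal cells through a set of receptor genes, and 49 of these were followed here in rats without testes. The members were all genes on the array whose symbol belongs to the serotonin (Htr1 to Htr7), dopamine (Drd1 to Drd5), adrenergic (Adra and Adrb), muscarinic (Chrm1 to Chrm5) or nicotinic (Chrn) receptor families. They made up 49 of 15154 named genes. By transmitter there were 14 serotonin, 5 dopamine, 9 adrenergic, 5 muscarinic and 16 nicotinic receptor genes. The files carry no gene names, so symbols were found through the accession that the files give for each probe, and the 49 genes lay on 52 probes. Where a gene had more than 1 probe, the brightest was used.

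Male Wistar rats 2 months of age had both testes removed (orchidectomized) or a sham operation, and their hippocampi were collected 2 weeks after the operation under ketamine and medetomidine anaesthesia. Each group was read on 3 Agilent arrays with a single dye, which the labels call biological replicates. The comparison asked which hippocampal transcripts differ after the loss of testicular hormones, and it was made over all 6 arrays and again without the array labelled sham 2. Levels are given on a log2 scale after subtraction of each array's 75th percentile, and a difference is orchidectomized minus sham on the same scale. Levels of different genes were not compared, since each probe has its own brightness.

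Most of these receptors are G protein-coupled. The Gs-coupled kind raises cAMP, the Gi-coupled kind lowers it and opens potassium channels, and the Gq-coupled kind acts through phospholipase C and calcium. The nicotinic receptors and the serotonin type 3 receptors are instead ion channels built of 5 subunits. In the hippocampus the axons of raphe, locus coeruleus, septal and midbrain neurons release the transmitters, and the receptors on local neurons, glia and vessels tune excitability, plasticity and memory. Choroid plexus epithelium, which lies against the hippocampus in the ventricle, is known for abundant serotonin 2C receptor.

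The RefSeq promoter table (assembly GRCr8) held 38 of the 49 genes, each with 250 bases before and 50 bases after the transcript start. A set of 5 is shown because these genes carry the results below. Htr2c and Htr2b were high on the array labelled sham 2, Htr5b and Chrm3 were low on it, and Chrna7 was the receptor gene whose groups did not overlap. They lie at chrX:115452940-115453239 (plus strand), chr9:94204038-94204337 (minus), chr13:35252537-35252836 (minus), chr17:64696677-64696976 (plus) and chr1:126249080-126249379 (minus), in that order. Capitals mark matches to AGAACA, an arm of the androgen and glucocorticoid response element, or to the GC box GGGCGG, on either strand.
Htr2c: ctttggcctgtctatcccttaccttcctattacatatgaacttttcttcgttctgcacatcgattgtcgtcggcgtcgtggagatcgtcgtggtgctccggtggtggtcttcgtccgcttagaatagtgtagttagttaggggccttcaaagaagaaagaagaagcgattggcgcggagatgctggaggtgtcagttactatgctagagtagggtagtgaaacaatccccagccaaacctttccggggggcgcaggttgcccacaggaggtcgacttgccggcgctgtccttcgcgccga
Htr2b: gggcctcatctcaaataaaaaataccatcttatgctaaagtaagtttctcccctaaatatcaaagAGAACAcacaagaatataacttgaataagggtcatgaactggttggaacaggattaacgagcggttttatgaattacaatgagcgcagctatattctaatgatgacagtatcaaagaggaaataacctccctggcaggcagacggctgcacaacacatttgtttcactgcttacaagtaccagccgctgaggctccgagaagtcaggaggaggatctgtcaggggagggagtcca
Htr5b: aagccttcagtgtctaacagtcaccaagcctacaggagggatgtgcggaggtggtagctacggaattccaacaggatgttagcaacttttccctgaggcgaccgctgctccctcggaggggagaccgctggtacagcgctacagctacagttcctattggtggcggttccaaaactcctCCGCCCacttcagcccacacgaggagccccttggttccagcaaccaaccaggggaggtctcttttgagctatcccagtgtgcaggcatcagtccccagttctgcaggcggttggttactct
Chrm3: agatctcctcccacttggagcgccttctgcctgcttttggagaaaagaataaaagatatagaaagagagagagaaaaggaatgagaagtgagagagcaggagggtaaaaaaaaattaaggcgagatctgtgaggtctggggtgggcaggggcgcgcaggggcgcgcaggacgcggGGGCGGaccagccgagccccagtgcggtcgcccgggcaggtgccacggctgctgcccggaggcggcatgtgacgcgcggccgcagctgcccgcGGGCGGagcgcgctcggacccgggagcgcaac
Chrna7: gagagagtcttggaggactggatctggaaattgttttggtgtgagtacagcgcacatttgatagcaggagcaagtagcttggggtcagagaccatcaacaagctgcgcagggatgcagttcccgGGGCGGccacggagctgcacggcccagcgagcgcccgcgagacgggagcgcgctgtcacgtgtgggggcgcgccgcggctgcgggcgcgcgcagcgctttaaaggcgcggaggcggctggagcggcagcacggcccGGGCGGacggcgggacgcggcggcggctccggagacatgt
Within these windows Htr2b held AGAACA at 185 bases before the start, and Htr2c held neither motif. Chrm3 had GC boxes at 75 bases before and 19 after the start, Chrna7 at 126 before and 11 after, and Htr5b at 71 before.

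Over the 38 receptor promoters, AGAACA was present in 4 (10.53%; Htr1f, Htr2b, Htr3b and Htr5a), against 20.1% of 27457 promoters of the same length. The full palindrome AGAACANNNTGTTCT was found in 0 of the 38 and in 2 promoters of the table. The cAMP response element TGACGTCA was in 0 of the 38 and in 1.91% of all. GC boxes were in 20 of the 38 (52.6%) and in 34.9% of all, and TATAAA was in Chrnb1 alone among the 38 (2.63%) and in 14.3% of all. The median GC content of the receptor promoters was 60.7%, against 52.3% over the table. Motifs were searched on both strands, and the full palindrome holds AGAACA in it, while a GC box shares no base with the other motifs. These are matches of letters, and the bases outside the windows were not searched.

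Across all probes the 6 arrays did not look alike. On each array 23785 to 26173 of 30367 probes were well above background by the scanner software's flag. The array labelled sham 2 correlated with the other 5 at r = 0.876 to 0.880, and these with each other at 0.983 to 0.993; the probes are not independent. Its mean level of 19 choroid plexus genes was 4.27, against -4.24 to -3.04 on the others, and 18 of the 19 were over 1 log2 unit above the range of the others. Its mean level of 16 glutamatergic neuron genes was -6.07, against 0.49 to 0.87, and 16 of 16 were below that range by over 1 log2 unit. The labelled tissue was therefore borne out by neuronal markers on 5 arrays and not on the array labelled sham 2, and each result below is given with and without it. The scanner software passed every array on 9 of 9 quality measures. Orchidectomized 1 and 2 shared slide 1, orchidectomized 3 shared slide 2 with sham 1, and the remaining sham arrays had a slide each. Sham 1 was scanned on day 1 together with the orchidectomized arrays, and the other sham arrays on day 2. Fewer cells of a type and less RNA per cell cannot be told apart in such bulk tissue.

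Most receptor genes were detected on every array. Of the 49 genes, 30 were well above background on all 6 arrays, 17 on 1 to 5 arrays and 2 on none (Chrna6 and Htr3b). Of 30366 probes with values in both groups, 22703 were well above background on all 6 arrays. On the 5 arrays other than the array labelled sham 2, 41 genes and 24162 of these probes were well above background on every one. Of these 41 genes, 11 were not well above background on the array labelled sham 2. Those 11 were Htr1a, Htr1b, Htr1f, Htr2a, Htr4, Drd3, Adra2a, Adrb3, Chrm1, Chrna3 and Chrng. The genes at the edge of detection were Drd1 (4 arrays), Chrna2 (2 arrays), Htr1d, Chrna10, Chrnb3 and Chrnd (1 array each).

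**Figure D1:**
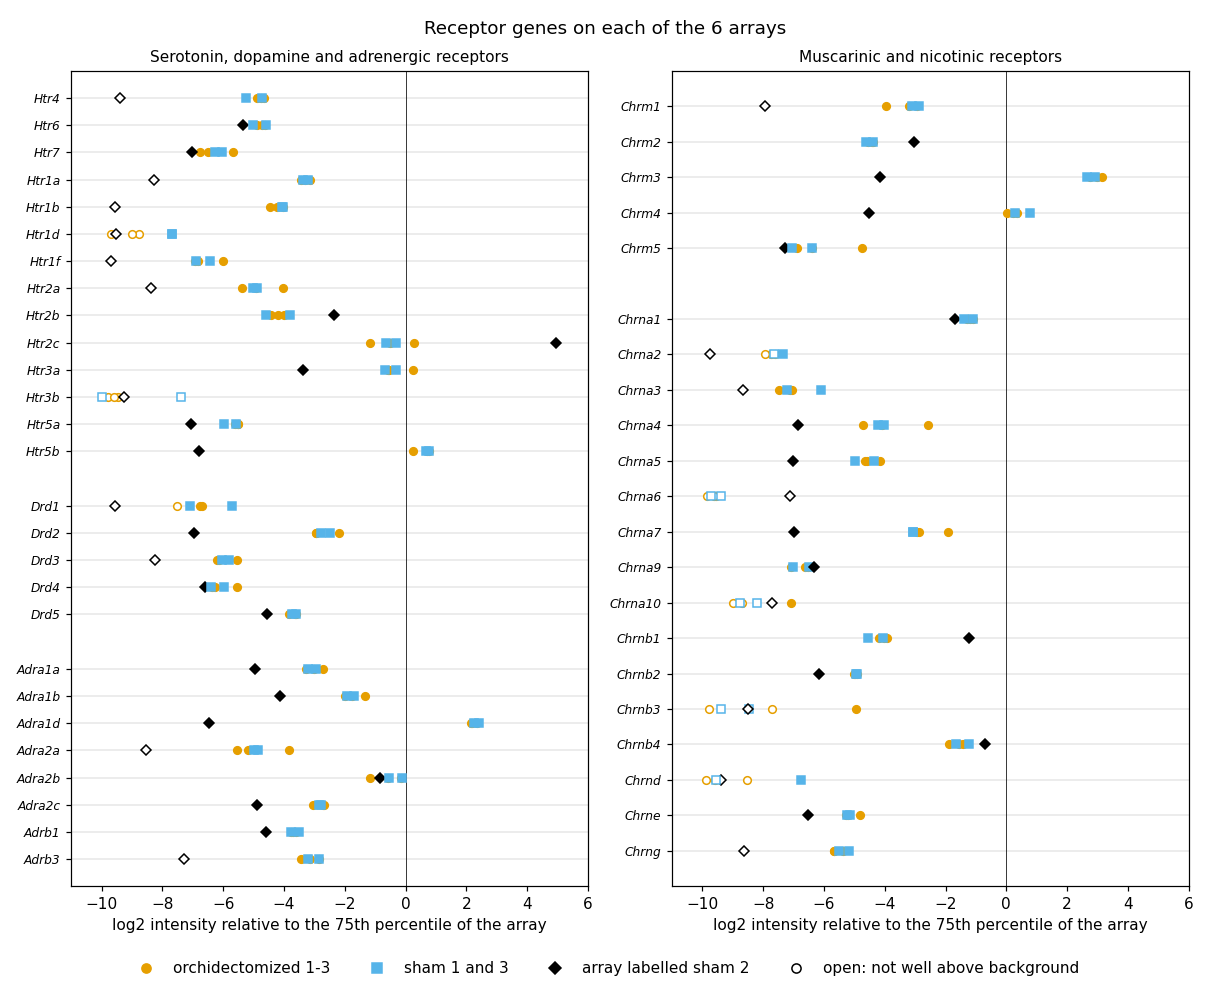
Level of each of 48 receptor genes on the 6 arrays, as log2 intensity after subtraction of the 75th percentile of that array; each symbol is 1 array and open symbols were not well above background. Black diamonds (the array labelled sham 2) lie left of the other arrays for most genes, and far to the right for Htr2c at 4.94 and for Chrnb1 at -1.22.

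No receptor gene passed the test. Over 6 arrays limma tested 41 of the 49 genes and called 0 at an adjusted p under 0.05, with 0 of 24634 probes (0%) called over the whole array. The smallest adjusted p among the receptors was 0.774, and 0 of the 41 had an unadjusted p under 0.05 against 0.731% of all probes; the smallest was 0.159, for Htr5a. Without the array labelled sham 2, 42 genes were tested, 0 were called (0% of 25212 probes) and the smallest adjusted p was 0.988. In that comparison 0 of 42 had an unadjusted p under 0.05, against 2.71% of all probes, and the smallest was 0.157, for Chrm4.

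Signs depended on the array labelled sham 2. With it, 34 of the 41 genes had a higher and 7 a lower mean in orchidectomized rats, where 48.4% of all tested probes were higher, and the median difference was 0.72 (all probes -0.02). Without it, 22 of 42 were higher and 20 lower, where 44.9% of all tested probes were higher, and the median difference was 0.02 (all probes -0.02). The differences then ran from -0.58 for Drd1 to 0.71 for Chrm5. Under other processings of the same 5 arrays the split moved, as did that of all probes. It was 35 higher and 7 lower with normexp background correction (68.7% of all probes higher). Both quantile normalization (50.5%) and the authors' deposited values (56.5%) gave 28 and 14. The split was 20 and 22 with the mean of a gene's probes (44.5%) and 14 and 28 with array weights (42.7%). Of the 41 receptor genes tested both ways, 20 had the opposite sign once that array was left out.

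The class medians moved in the same manner. Over 6 arrays they were 1.26 for muscarinic, 1.12 for serotonin, 0.71 for adrenergic, 0.50 for dopamine and 0.37 for nicotinic receptors. Without the array labelled sham 2 they were 0.07, 0.04, -0.01, -0.05 and 0.06 in the same order. Over 6 arrays the serotonin median was 0.24 where only genes well above background on every array were kept, and 0.45 with normexp background correction, which gave 0.53 for the muscarinic receptors. Slide and scan day each cross the groups in part. With slide as a block the median of all receptor genes was 0.04 with and 0.03 without the array labelled sham 2, and with scan day as a block it was -0.08 in both. The slide block rests on orchidectomized 3 against sham 1, and its residual spread comes from orchidectomized 1 and 2 on slide 1. Spread between sham rats does not enter it, so its p-values are not given. The scan-day block sets the orchidectomized arrays against sham 1 alone.

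The precision of the comparison was set by that array too. The SD within groups had a median of 0.98 over the 41 receptor genes with it (0.41 over all probes) and 0.27 over the 42 genes without it (0.19 over all probes). Without it the 95% interval of a receptor's difference reached a median of 0.53 log2 units to either side, from 0.30 for the narrowest to 1.59 for the widest. For 37 of the 42 genes it reached less than 1 log2 unit. A difference of over 0.5 log2 units was seen in 3 of the 42 (7.14%, against 6.24% of all probes), Chrm5, Drd1 and Chrna3. These intervals bound the differences and do not show that the groups are alike.

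**Figure D2:**
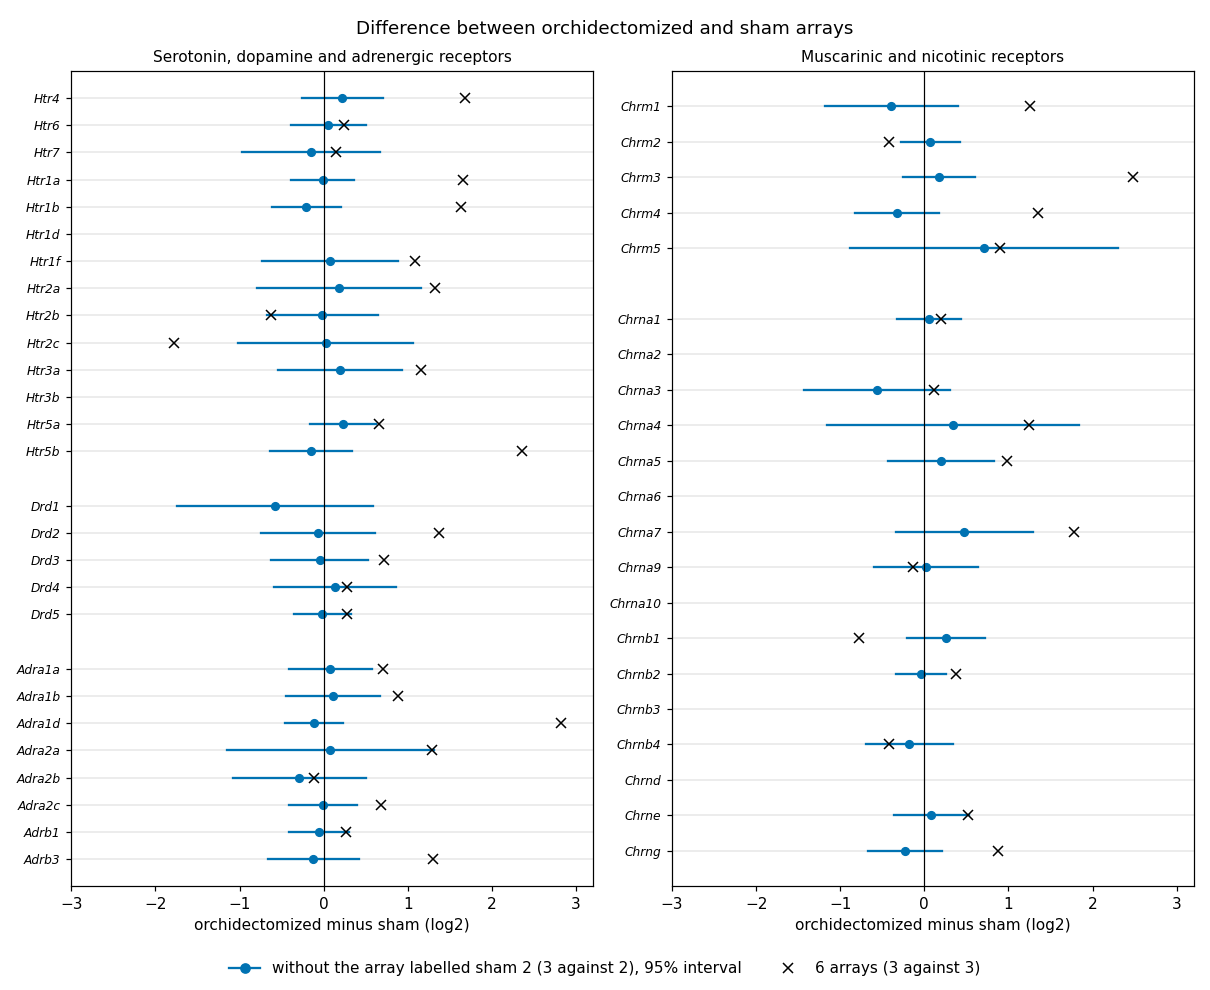
Difference between orchidectomized and sham arrays (log2, orchidectomized minus sham) for the tested receptor genes. Blue points with bars are the difference and its 95% interval without the array labelled sham 2 (3 arrays against 2), and crosses are the difference over 6 arrays; every bar spans 0, and crosses lie to the right of 0 for 33 of the 40 genes drawn.

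In the following, levels are listed for orchidectomized 1, 2 and 3 and then for sham 1, 2 and 3. Differences are given with their standard errors, and the limma adjusted p was 0.774 to 0.947 for every receptor tested over 6 arrays and 0.988 to 0.997 for every receptor tested without the array labelled sham 2.

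Among the serotonin receptors, Htr1a encodes the Gi-coupled receptor that hyperpolarises pyramidal neurons and serves as autoreceptor in the raphe. Its levels were -3.32, -3.13 and -3.45 in orchidectomized rats and -3.36, -8.29 and -3.21 in sham rats. The array labelled sham 2 was not well above background and at least 18.7-fold dimmer than the mean of the others, and the remaining 5 arrays overlapped. Without that array the means were -3.30 ± 0.16 (SD, n = 3) and -3.29 ± 0.10 (SD, n = 2). The difference was -0.01 (SE 0.15), with a 95% interval from 0.766-fold to 1.29-fold, against 1.66 (SE 1.42) over 6 arrays. Htr1b, a Gi-coupled receptor of axon terminals, had levels of -4.24, -4.05 and -4.47 against -4.06, -9.56 and -4.02. Here the array labelled sham 2 was at least 10.2-fold dimmer, and the difference was -0.21 (SE 0.16) without it and 1.63 (SE 1.56) with it. Htr1f, also Gi-coupled, had -6.84, -6.93 and -6.00 against -6.43, -9.69 and -6.90, with a difference of 0.08 (SE 0.33) without and 1.09 (SE 0.91) with that array. The groups overlapped for both genes. Htr1d, a Gi-coupled relative of Htr1b, was well above background on sham 3 alone and was not tested.

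The Gq-coupled serotonin type 2 receptors parted on the array labelled sham 2. Htr2c stood at -0.51, -1.16 and 0.29 in orchidectomized and at -0.31, 4.94 and -0.65 in sham rats. On the array labelled sham 2 the probe was saturated and at least 42.4-fold brighter than on the others, among which the groups overlapped. The difference was 0.02 (SE 0.42) without it, with an interval from 0.495-fold to 2.08-fold, and -1.78 (SE 1.57) with it. A second Htr2c probe had -7.44, -7.82 and -5.84 against -5.52, -0.63 and -7.38. It differed by -0.58 without and -2.52 with the array labelled sham 2. Both probes were highest on that array. Htr2b, the type 2 receptor best known from heart and gut, was also highest there, at -4.00, -4.19 and -4.43 against -3.80, -2.37 and -4.58. Its difference was -0.02 (SE 0.27) without and -0.63 (SE 0.58) with that array. Htr2a, the cortical type 2 receptor on which hallucinogens act, went the opposite way, at -4.93, -5.38 and -4.02 against -5.02, -8.36 and -4.90. It was at least 6.35-fold dimmer on the array labelled sham 2, and orchidectomized 3 was the brightest array. The Htr2a difference was 0.19 (SE 0.39) without and 1.32 (SE 1.03) with that array.

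Htr5b, a rodent receptor gene expressed in the habenula and hippocampus, was low on the array labelled sham 2 while still well above background there. Its levels were 0.70, 0.76 and 0.23 against 0.68, -6.81 and 0.76. The 5 other arrays lay within a narrow overlapping range, and the difference was -0.15 (SE 0.20) without and 2.35 (SE 2.13) with that array. Htr5a, its Gi-coupled relative, had -5.50, -5.63 and -5.53 against -5.97, -7.07 and -5.59. Its difference was 0.23 (SE 0.16) without and 0.66 (SE 0.41) with that array. Htr4, a Gs-coupled receptor that strengthens pyramidal cell firing, had -4.67, -4.89 and -4.77 against -5.26, -9.39 and -4.73. It was at least 6.30-fold dimmer on the array labelled sham 2, with a difference of 0.22 (SE 0.19) without and 1.69 (SE 1.25) with it. Htr3a, the obligatory subunit of the serotonin-gated channel and a mark of a class of interneurons, had -0.58, -0.55 and 0.25 against -0.68, -3.36 and -0.30. The difference was 0.20 (SE 0.30) without and 1.15 (SE 0.86) with that array, and the groups overlapped on the other 5. Htr6 and Htr7, the remaining Gs-coupled receptors, were well above background on all 6 arrays and differed by 0.06 (SE 0.18) and -0.15 (SE 0.33) without that array. Their levels on it, at -5.35 and -7.04, were less than 1 log2 unit below the others. Htr3b, the partner subunit of Htr3a, was well above background on 0 arrays.

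**Figure D3:**
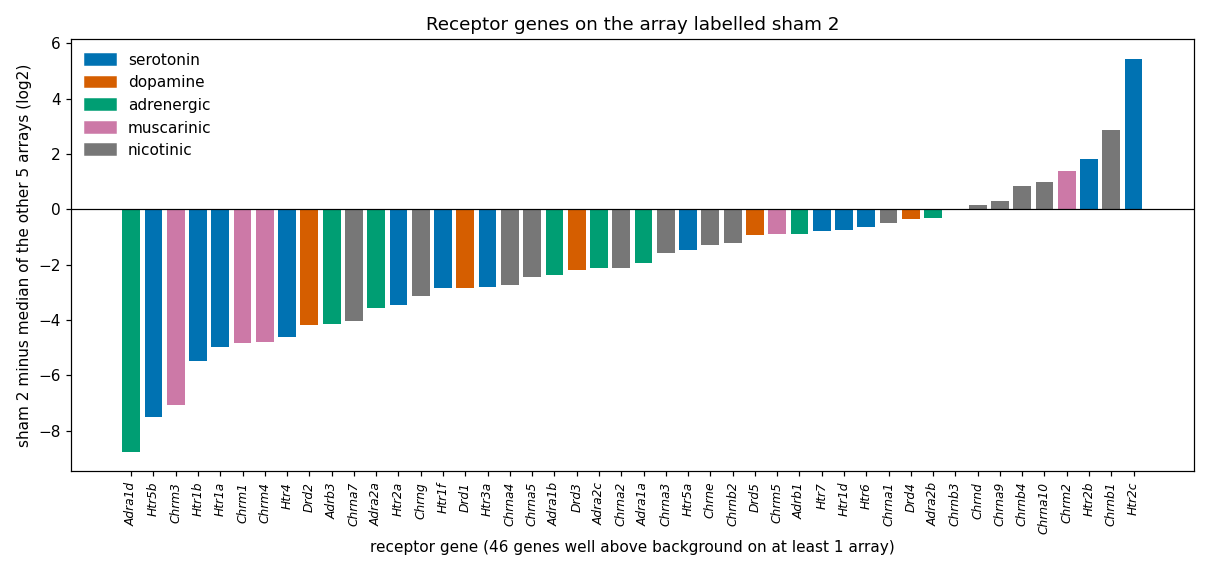
Level on the array labelled sham 2 minus the median of the other 5 arrays (log2), for 46 receptor genes well above background on at least 1 array, coloured by transmitter class. Genes not well above background on that array have only a bound there, as has Htr2c, whose probe was saturated on it; the lowest bar is Adra1d at -8.75, and Htr2c is drawn at 5.45.

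The dopamine receptors are the Gs-coupled Drd1 and Drd5 and the Gi-coupled Drd2, Drd3 and Drd4. Drd5, the Gs-coupled receptor typical of hippocampal neurons, had levels of -3.61, -3.82 and -3.65 against -3.61, -4.57 and -3.75. The means without the array labelled sham 2 were -3.69 ± 0.11 (SD, n = 3) and -3.68 ± 0.10 (SD, n = 2). The difference was -0.01 (SE 0.14), with an interval from 0.781-fold to 1.25-fold, and 0.28 (SE 0.30) over 6 arrays. Drd1, the receptor of striatal projection neurons and granule cells, had -6.69, -7.52 and -6.75 against -5.70, -9.57 and -7.11. It was not well above background on orchidectomized 2 and on the array labelled sham 2, so it was tested only without the latter, with a difference of -0.58 (SE 0.47). Sham 1 was the brightest array and set that difference. It was -1.28 against sham 1 alone (scan day 1) and 0.12 against sham 3 alone.

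Sham 1 also had the highest mean level of 12 striatal genes, at -2.18 against -3.03 to -2.93 on the other arrays bar the array labelled sham 2. Its mean over 9 thalamus and habenula genes was -2.74, against -3.91 to -3.36. Whether neighbouring tissue has a part in the Drd1 value was not tested.

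Drd2, the Gi-coupled receptor and autoreceptor of midbrain neurons, was read by 2 probes that disagree. The brighter probe had -2.94, -2.94 and -2.18 against -2.47, -6.95 and -2.77, and the dimmer had -5.22, -5.46 and -5.31 against -5.19, -5.53 and -5.33. The array labelled sham 2 stood far below the others on the brighter probe and just below them on the dimmer one. Differences without it were -0.07 for both probes (SE 0.28 for the brighter), and with it 1.38 (SE 1.25) and 0.02. Drd3, a limbic Gi-coupled receptor, had -6.20, -6.14 and -5.56 against -5.80, -8.23 and -6.04. It was at least 2.97-fold dimmer on the array labelled sham 2, and differed by -0.05 (SE 0.23) without and 0.72 (SE 0.69) with it. Drd4 was well above background on all arrays, from -6.61 to -5.55, and differed by 0.13 (SE 0.29) without that array.

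Adrenergic receptors answer the noradrenaline released by locus coeruleus axons. Adra1d, a Gq-coupled receptor abundant in hippocampal pyramidal cells, had levels of 2.36, 2.18 and 2.16 against 2.27, -6.48 and 2.43. On the array labelled sham 2 it fell by 8.64 log2 units below the lowest of the others, and the probe was well above background on all arrays. The other 5 arrays stayed within a narrow overlapping range. Its difference was -0.11 (SE 0.14) without and 2.83 (SE 2.49) with that array. Adra1a and Adra1b, the other Gq-coupled receptors, showed smaller gaps. Adra1a had -3.02, -3.27 and -2.73 against -2.96, -4.97 and -3.21, and differed by 0.08 (SE 0.20) without and 0.71 (SE 0.57) with that array. Adra1b had -1.76, -2.01 and -1.34 against -1.70, -4.12 and -1.93, and differed by 0.11 (SE 0.23) without and 0.88 (SE 0.69) with it.

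Adra2a, the Gi-coupled autoreceptor of noradrenergic neurons, had levels of -5.53, -5.17 and -3.85 against -4.86, -8.56 and -4.9998. Orchidectomized 3 was the brightest array, orchidectomized 1 and 2 lay below both remaining sham arrays, and the array labelled sham 2 was at least 6.21-fold dimmer. The difference was 0.08 (SE 0.50) without it, with an interval from 0.451-fold to 2.48-fold, and 1.29 (SE 1.12) with it. Adra2c, a Gi-coupled receptor that limits release at low firing rates, had -2.69, -2.72 and -3.06 against -2.77, -4.90 and -2.85. It differed by -0.01 (SE 0.16) without and 0.69 (SE 0.62) with that array. Adra2b stood at -1.16 to -0.13 over all 6 arrays, and the array labelled sham 2 lay inside the range of the others. Its difference was -0.29 (SE 0.32) without and -0.12 (SE 0.34) with that array.

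The Gs-coupled beta receptors Adrb1 and Adrb3 differed by little. Adrb1, the beta receptor best known in hippocampal plasticity, had levels of -3.61, -3.78 and -3.71 against -3.51, -4.59 and -3.78. Its difference was -0.05 (SE 0.15) without the array labelled sham 2, with an interval from 0.749-fold to 1.24-fold, and 0.26 (SE 0.32) with it. Adrb3, the beta receptor of fat cells, had -2.85, -3.43 and -3.16 against -2.84, -7.31 and -3.21. It was at least 18.5-fold dimmer on the array labelled sham 2, and differed by -0.12 (SE 0.22) without and 1.31 (SE 1.23) with it.

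The 5 muscarinic receptors had a class median of 0.07 once the array labelled sham 2 was left out. Chrm1, the Gq-coupled receptor through which septal acetylcholine excites pyramidal cells, had levels of -2.95, -3.21 and -3.98 against -3.11, -7.95 and -2.86. Orchidectomized 3 was the lowest of the 5 arrays, and the array labelled sham 2 was at least 19.7-fold dimmer than the mean of these. The difference was -0.39 (SE 0.32) without it, with an interval from 0.440-fold to 1.32-fold, and 1.26 (SE 1.43) with it. Chrm3, also Gq-coupled, had 2.98, 2.76 and 3.16 against 2.92, -4.14 and 2.67. It fell by 6.82 log2 units below the lowest of the others on the array labelled sham 2, and differed by 0.17 (SE 0.17) without and 2.49 (SE 1.96) with it. Chrm4, a Gi-coupled receptor of glutamatergic terminals and striatal neurons, had 0.36, 0.23 and 0.01 against 0.29, -4.51 and 0.77. Its difference was -0.33 (SE 0.20) without and 1.35 (SE 1.43) with that array, and the groups overlapped in both comparisons.

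Chrm2, the Gi-coupled autoreceptor of cholinergic terminals, was the muscarinic gene that stood higher on the array labelled sham 2. Its brighter probe had -4.37, -4.42 and -4.54 against -4.40, -3.04 and -4.63, and its dimmer probe -6.65, -6.50 and -7.17 against -6.06, -5.32 and -6.33. Both probes were highest on that array. Without it the brighter probe differed by 0.07 (SE 0.14) and the dimmer by -0.58, and with it by -0.42 (SE 0.45) and -0.87. The probes thus differed in sign without that array. Chrm5, a Gq-coupled receptor of dopamine neurons and vessels, stood at -6.89, -6.39 and -4.75 against -6.40, -7.28 and -7.04. Orchidectomized 3 alone was high, and the difference was 0.71 (SE 0.64) without and 0.90 (SE 0.61) with the array labelled sham 2.

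Chrna7, the subunit of the calcium-permeable homomeric nicotinic receptor of hippocampal interneurons and pyramidal cells, was the only tested receptor gene whose groups did not overlap. Its levels were -2.86, -2.95 and -1.93 in orchidectomized rats and -3.06, -6.98 and -3.06 in sham rats. All 3 orchidectomized arrays lay above all 3 sham arrays, orchidectomized 1 and 2 by little and orchidectomized 3 by much. This made 1 of 41 genes, against 3.26% of all probes with higher groups that do not overlap, and 1 of 42 without the array labelled sham 2, against 6.24%. A share of this size is near the background. The difference was 1.78 (SE 1.15, limma adjusted p 0.774) over 6 arrays and 0.48 (SE 0.33, limma adjusted p 0.988) without the array labelled sham 2, with an interval from 0.793-fold to 2.44-fold. On slide 2, which held both groups, orchidectomized 3 exceeded sham 1 by 1.13. Within scan day 1 the difference was 0.48, with sham 1 as the lone sham array. Both values reuse the same arrays and are not separate support.

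Chrna4 and Chrnb2 form the main high-affinity nicotinic receptor of the brain, and they behaved differently. Chrna4 had -4.10, -4.71 and -2.58 against -4.03, -6.84 and -4.23, with orchidectomized 3 far above the other arrays. Chrnb2 had -4.997, -4.99 and -4.92 against -4.94, -6.16 and -4.93, with the 5 arrays other than the array labelled sham 2 close together. The difference without that array was 0.34 (SE 0.61) for Chrna4 and -0.04 (SE 0.12) for Chrnb2, whose interval of 0.793-fold to 1.20-fold was the narrowest among all receptor genes. With it the values were 1.24 (SE 0.94) and 0.37 (SE 0.38).

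The ganglionic subunits Chrna3, Chrna5 and Chrnb4 are encoded side by side. Chrna3 stood at -7.48, -7.05 and -7.10 against -6.09, -8.67 and -7.21. Sham 1 was the brightest array, as for Drd1, and the array labelled sham 2 was at least 1.44-fold dimmer than the mean of the other 5. The difference was -0.56 (SE 0.35) without that array and 0.11 (SE 0.66) with it. It was -1.12 against sham 1 alone and -0.0023 against sham 3 alone. Chrna5, an accessory subunit, had -4.66, -4.57 and -4.17 against -4.99, -7.03 and -4.34, and differed by 0.20 (SE 0.25) without and 0.99 (SE 0.71) with that array. Chrnb4 stood at -1.88 to -0.71 with the array labelled sham 2 brightest, and differed by -0.18 (SE 0.21) without and -0.42 (SE 0.30) with it.

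The muscle-type subunits were detected as well. Chrnb1, the beta subunit of the neuromuscular receptor, had levels of -4.19, -3.93 and -4.03 against -4.07, -1.22 and -4.54. It was 2.72 log2 units above the highest of the others on the array labelled sham 2, and differed by 0.25 (SE 0.19) without and -0.78 (SE 0.89) with it. Chrng, the fetal gamma subunit, had -5.68, -5.66 and -5.38 against -5.16, -8.65 and -5.52. It was at least 4.11-fold dimmer on that array and differed by -0.23 (SE 0.18) without and 0.87 (SE 0.95) with it. Chrne, the adult epsilon subunit, had -5.22, -5.28 and -4.83 against -5.23, -6.52 and -5.14, with differences of 0.08 (SE 0.18) and 0.52 (SE 0.42). Chrna1, the ligand-binding subunit, stood at -1.67 to -1.10 over 6 arrays and differed by 0.06 (SE 0.15) without that array. Chrnd, the delta subunit, was well above background on sham 1 alone. Of the neuronal subunits not yet named, Chrna9 was well above background on all arrays and differed by 0.02 (SE 0.25). Its cochlear partner Chrna10 was detected on orchidectomized 3 alone, and Chrnb3 on orchidectomized 1 alone. Chrna2, the subunit of a class of deep interneurons, was detected on orchidectomized 1 and sham 3 and had -7.76, -7.94 and -7.60 against -7.66, -9.77 and -7.34. Chrna6, a subunit of dopamine neurons, was well above background on 0 arrays, at -9.86, -9.56 and -9.62 against -9.40, -7.12 and -9.71, and such values have no order.

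**Figure D4:**
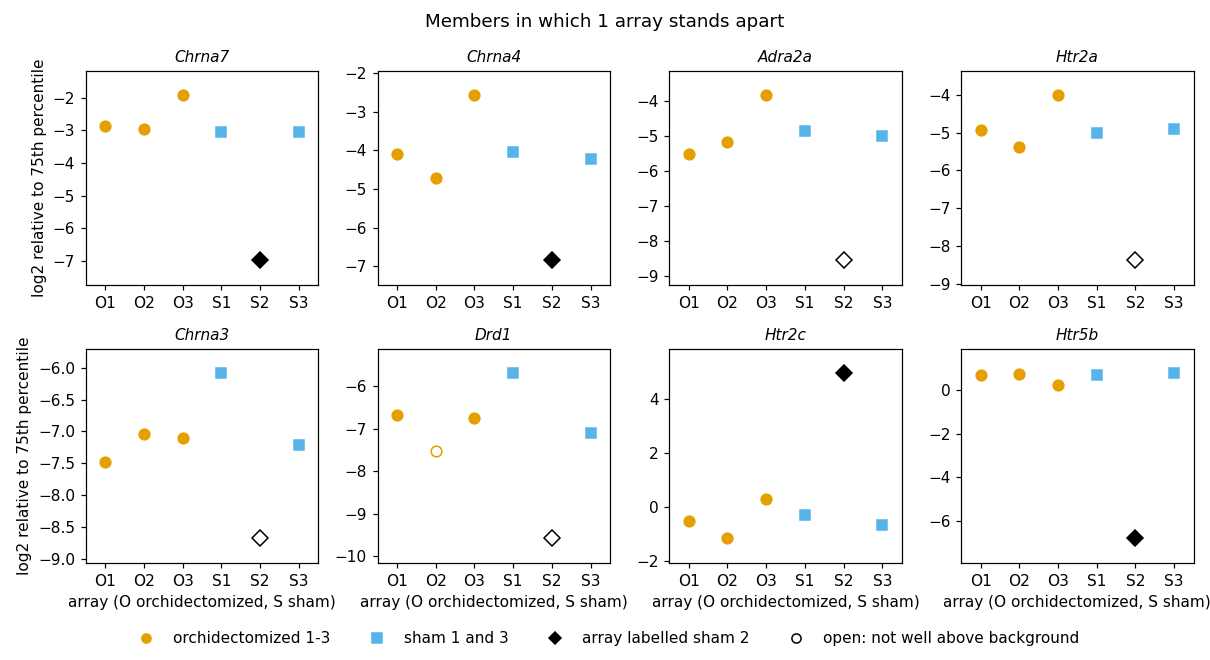
Levels of 8 receptor genes on each array (log2 intensity relative to the 75th percentile; O, orchidectomized; S, sham; open symbols not well above background). Orchidectomized 3 stands above the other arrays for Chrna7, Chrna4, Adra2a and Htr2a, sham 1 for Chrna3 and Drd1, and the array labelled sham 2 stands at 4.94 for Htr2c and at -6.81 for Htr5b.

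Single arrays thus carried much of what varied among the 5 arrays. Orchidectomized 3 was the highest of the 5 in 20 of 42 receptor genes (47.6%), where it was highest in 34.5% of all tested probes, and sham 1 in 11 of 42 (26.2%), against 27.8%. Orchidectomized 2 was lowest in 13 (31.0%, against 20.9%), sham 3 in 10 (23.8%, against 23.3%) and orchidectomized 3 in 9 (21.4%, against 30.7%). Orchidectomized 3 had 672 spots marked as outliers by the scanner software, against 235 to 313 on the other arrays, and the part of this in its receptor values was not tested. Leaving out orchidectomized 3 in addition to the array labelled sham 2 left 13 receptor genes higher and 29 lower, with 0 called.

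Against the other 5 arrays, the array labelled sham 2 was over 1 log2 unit lower in 28 of the 47 receptor genes detected on any array (59.6%) and over 1 log2 unit higher in 4 (8.51%), Htr2c, Chrnb1, Htr2b and Chrm2. Over all 27363 probes detected on any array the shares were 19% lower and 14.7% higher. By class, 6 of 9 adrenergic, 3 of 5 dopamine, 3 of 5 muscarinic, 8 of 15 nicotinic and 8 of 13 serotonin receptor genes were lower. This array was singled out by its values, so the counts are a description. The receptor genes that stayed near the other arrays included Adra2b, Drd4, Chrna1 and Chrna9.

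The genes that make, carry, break down and relay these transmitters gave 0 calls in either comparison, over 9 lists drawn up for the pathways. Over 10 monoamine synthesis genes the median difference without the array labelled sham 2 was less than 0.01 in size, with 5 higher and 5 lower. Over 7 of 9 transporter genes tested it was -0.40, with 1 higher and 6 lower, and over 7 breakdown genes it was -0.05, with 3 higher and 4 lower. Th, the rate-limiting enzyme of catecholamine synthesis, differed by -0.19 (SE 0.20), and Tph2, that of neuronal serotonin synthesis, by 0.12 (SE 0.48). Maob, a mitochondrial monoamine oxidase, had -0.15, -0.09 and 0.03 against -0.17, -3.26 and -0.15, and differed by 0.09 (SE 0.13). Slc18a1, a vesicular monoamine transporter, had -3.27, -2.64 and -3.20 against -3.42, -5.53 and -3.43. Its orchidectomized arrays all lay above the sham arrays, as for 3.26% of all probes with and 6.24% without the array labelled sham 2. The Slc18a1 difference was 0.39 (SE 0.22, limma adjusted p 0.988) without that array. Slc22a3, an extraneuronal monoamine transporter, differed by -2.47 (SE 1.01, limma adjusted p 0.988), which rested on sham 1 at -3.65 against -8.28 to -7.26 on all other arrays.

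Of the 8 acetylcholine handling genes, 1 was higher and 7 were lower without the array labelled sham 2, at a median of -0.26. With that array 7 of the 8 were higher, at a median of 0.52. Slc5a7, the high-affinity choline transporter of cholinergic terminals, was the only one of 92 genes tested over the 9 lists with an unadjusted p under 0.05 without that array (1.09%, against 2.71% of all probes). Its levels were -2.96, -3.22 and -3.76 against -2.48, -6.58 and -1.96. Sham 1 and sham 3 lay above all orchidectomized arrays, and the array labelled sham 2 lay below them. The difference was -1.09 (SE 0.29, p 0.00979, limma adjusted p 0.988) without that array and 0.36 (SE 1.26) with it. Ache, the acetylcholine-splitting enzyme, had -0.32, -0.50 and -1.19 against -0.07, -5.11 and -0.28, and differed by -0.49 (SE 0.28) without that array. Slc44a1, a choline carrier of many cells, differed by -0.27 (SE 0.15), and Slc18a3, the vesicular acetylcholine transporter, by -0.07 (SE 0.15). Among 10 cholinergic neuron markers, the mean level was -3.95 on sham 1 and -4.95 to -4.47 on the other arrays bar the array labelled sham 2. In that mean Isl1 stood at -5.84 on sham 1, against -10.12 to -9.61 on those other arrays. Of the 7 cholinergic markers tested without the array labelled sham 2, 0 were higher and 7 lower. Ache, Chat, Slc18a3 and Slc5a7 are in both lists, so the 2 counts are not separate. Of 12 oligodendrocyte genes 2 were higher and 10 lower. Of 18 choroid plexus genes 16 were higher and 2 lower, with Ttr, the transthyretin gene of that tissue, higher by 1.58 (SE 0.29, limma adjusted p 0.988). Lhx8 was well above background on no array and Isl1 on 1, and the part of any of these cell types in the Slc5a7 value was not tested.

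Of the genes that act behind the receptors, 13 G protein genes had a median of -0.08 (4 higher, 9 lower), 19 effector genes -0.02 (8 higher, 11 lower) and 15 genes of receptor shutdown -0.06 (5 higher, 10 lower) without the array labelled sham 2. Kcnj9, a potassium channel subunit opened by Gi-coupled receptors, had -0.77, -0.85 and -0.54 against -0.99, -6.14 and -1.15. All orchidectomized arrays lay above all sham arrays, as for 3.26% of all probes with and 6.24% without the array labelled sham 2. The Kcnj9 difference was 0.35 (SE 0.15, limma adjusted p 0.988) without that array. Grk3, a kinase that desensitises receptors, had -3.50, -3.68 and -3.27 against -3.74, -8.32 and -3.93, with a difference of 0.35 (SE 0.17, limma adjusted p 0.988). The 9 tested nicotinic partner genes had a median of 0.07 (5 higher, 4 lower). Tmem35a, a chaperone that nicotinic receptors need to reach the surface, differed by 0.21 (SE 0.25), and Ly6h, which restrains Chrna7 receptors, by 0.39 (SE 0.35). The 4 tested histamine and trace amine receptor genes had a median of 0.04, with Hrh3, the histamine autoreceptor, at -0.09 (SE 0.16).

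**Figure D5:**
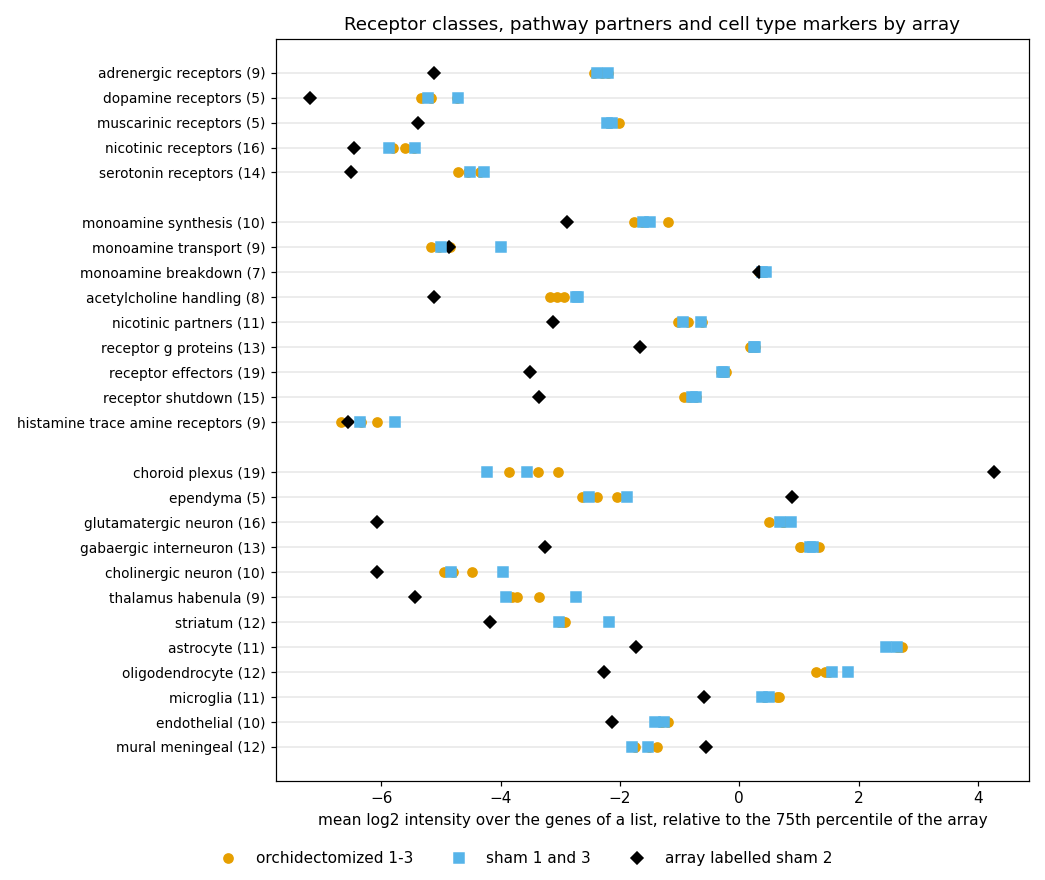
Mean log2 intensity (75th percentile of the array subtracted) of each receptor class, pathway list and cell type marker list on each array, with the number of genes in brackets. The array labelled sham 2 lies at 4.27 for choroid plexus and at -6.07 for glutamatergic neuron genes, and left of the other arrays for all 5 receptor classes.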

How the data were processed

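Hippocampal RNA of 6 rats was read on 1-colour arrays (Cy3). The deposited scanner files hold processed intensity, background-subtracted by Agilent Feature Extraction 10.5.1.1 per the file headers, with flags for background, saturation and outliers; the genome build there is rn4, so gene coordinates are not given, and promoters are those of GRCr8. Values in the authors' deposited table are log2 and equal the log2 processed signal plus a constant per array, from -0.32 to 0.72, whose origin is unknown. In that table orchidectomized 1, 2 and 3 have medians of 8.02, 7.94 and 7.91, and sham 1, 2 and 3 have 7.77, 7.62 and 8.05.

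From 44254 spots, 1377 control spots and outlier spots were left out, leaving 30367 probes. Log2 signals of a probe's spots were averaged, and the 75th percentile of each array was subtracted. Unversioned accessions were matched to the GRCr8 RefSeq gene table, which named 18004 probes and left 12363 unnamed. A probe was tested where every array of either group flagged it as well above background. The test was two-sided, by lmFit and eBayes of limma 3.58.1 (R 4.3.3), and p-values were adjusted over all tested probes by Benjamini-Hochberg. The fit was checked on simulated data. The number of arrays limits the precision.

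"At least" folds set the bright arrays' mean against the higher of the dim probe's value and the lowest value well above background on the dim array; a saturated spot entered at its value. Genes given with their level on every array had an unadjusted p under 0.05, groups that did not overlap, or a level on the array labelled sham 2 over 1 log2 unit outside the other 5; to these came Htr1a, Htr2c, Drd1, Drd2, Drd5, Adra2a, Adrb1, Chrm1, Chrna7 and Chrnb2 as textbook hippocampal receptors, and up to 3 genes per pathway list with the smallest p. Other tested receptor genes are given by their range or difference; Chrm5 was given in full after its values were seen. The receptor genes, the gene lists and the rules were chosen with earlier results of these data known. Alternatives were normexp (offset 50, on median spot signals, since the files lack mean signals), quantile and median scaling, other filters, the deposited values, replicate number, slide or scan day as a block, array weights, a trended robust variance, the mean of a gene's probes, and leaving out each array. Normexp without the array labelled sham 2 moved the median difference of all probes from -0.02 to 0.08, and its differences are relative to that. Of the receptor genes, 1 is counted but not reported singly here.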

Additional observations from a re-analysis of the deposited data

How the results depend on the processing

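No receptor gene was called under any alternative run, with or without the array labelled sham 2. Class medians changed sign by more than the within-group SD of the class's mean level per array in 9 cases, and other sign changes were smaller than that SD. Over 6 arrays these were the muscarinic median with slide as a block (-0.15), the nicotinic median with a scan-day block (-0.033) and under array weights (-0.045), and the serotonin median likewise (-0.13 and -0.00028). The weight of the array labelled sham 2 was 0.0326. Without that array the muscarinic median was -0.15 with a slide block, -0.049 with a scan-day block and -0.25 with the mean of all probes of a gene. Leaving out a further array gave muscarinic medians from -0.049 to 0.19, the lowest without sham 3. The cause of these changes was not tested, except that the mean of probes takes in the second Chrm2 probe. With the replicate number as a block, 0 receptor genes were called and their median was 0.72 with and 0.09 without the array labelled sham 2. Deviations of same-numbered samples from their group means correlated at 0.027, -0.023 and -0.018. The sham mean there includes the array labelled sham 2, so these values cannot decide whether the numbers pair the samples. Without the array labelled sham 2, calls over all probes rose from 0 to 18 with the deposited values. They were 2 with quantile normalization and 1 with median scaling. A scan-day block, or leaving out sham 1 or sham 3, then leaves a lone sham array in the comparison. Calls of those fits are not counted here, since a lone sham array shows no spread of its own. Over 6 arrays 1 probe was called with quantile normalization and 1 with array weights. Leaving out orchidectomized 3 as well turned 22 higher and 20 lower receptor genes into 13 and 29, and leaving out sham 1 or sham 3 gave 29 and 15, or 14 and 29. Dim probes limit what can be said of the 8 genes not tested over 6 arrays.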
